A study of Homo sapiens with 2 samples.

Results

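The genes described here are 41 regulators and core factors of pre-mRNA splicing, taken by symbol from the 58174 genes listed in both deposited expression tables: 13 serine/arginine-rich (SR) and SR-like proteins, 17 heterogeneous nuclear ribonucleoproteins (hnRNPs, with PTBP1), 9 subunits of SF3A, SF3B and U2AF, and the epithelial splicing regulators ESRP1 and ESRP2. All 41 symbols were found. The genes were picked by name, with earlier results of these data known. Of the 41 genes, 40 reached 1 TPM (a transcript abundance scaled for length and library total) in 1 library or both. ESRP1 was the exception, listed at the floor value of 0.0001 TPM in control cells and at 0.21 TPM in GDF1-transduced cells, and it entered no count.

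PLC-8024 is a hepatocellular carcinoma (HCC) cell line, and both groups were PLC-8024 cells carrying a lentiviral vector and selected with puromycin. Whether the selection lasted until sequencing was not stated. PLC-8024-CTR cells carried the control vector. PLC-8024-GDF1 cells carried a lentiviral insert of growth differentiation factor 1 (GDF1), a secreted ligand of the TGF-β superfamily. Poly(A) RNA from each of the 2 cell populations was sequenced in 1 library, so that no value below has a replicate, no p-value or standard error can be given, and a difference between the libraries cannot be told apart from a difference between any pair of cultures. The scaling by length allows genes to be compared within a library. TPM keeps no read depth, so the counting error of each value is unknown. In such bulk RNA, fewer cells that express a gene and less RNA per cell cannot be told apart.

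Splicing removes introns through the spliceosome, which assembles anew on each intron. U2AF reads the end of the intron, and the U2 small nuclear ribonucleoprotein (snRNP), with its SF3A and SF3B subcomplexes, then settles on the branch point. SR proteins bind exonic enhancers and favour the use of nearby exons, whereas hnRNPs coat nascent RNA and often repress exons, so that the balance between both families shapes which exons are kept. Many SR and hnRNP genes also regulate their own transcripts through exons that lead to decay of the RNA. In liver cancer, as in other carcinomas, altered levels of splicing factors are a recurrent feature.

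The transduced gene was checked first. GDF1 was at 2.10 TPM in the control library and 4.64 TPM in the GDF1 library, while CERS1, whose transcript overlaps that of GDF1, was at 13.3 and 9612 TPM. All 14 hepatocyte markers were detected, at a summed 12578 TPM in control and 7655 TPM in PLC-8024-GDF1 cells, and 9 of them fell past 2-fold (5 on rescaling, 6 with the GC trend removed). AFP, which the study used as a liver progenitor marker, was among these 9, at 31.4 and 9.75 TPM. KRT8 stood at 1424 and 1777 TPM, whereas EPCAM was at 0.17 TPM in control and listed at 0.0001 TPM in GDF1 cells. Only 2 of 9 fibroblast and endothelial markers and 2 of 7 leukocyte markers reached 1 TPM, with summed levels of 27.3 and 25.0 TPM for the first list and 332 and 228 TPM for the second. The leukocyte sum came from LYZ and CD68, and PTPRC was listed at 0.0001 TPM in both libraries. The part of these shifts in the values below was not tested.

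The splicing regulators were mostly lower in PLC-8024-GDF1 than in PLC-8024-CTR cells. Together they summed to 3647 TPM in control and 2317 TPM in GDF1 cells, or 0.365% and 0.232% of all TPM, so that 63.5% of the control level was left. Changes are given as log2 of (PLC-8024-GDF1 TPM + 1) over (PLC-8024-CTR TPM + 1), a scale that understates the change of low genes. The median over the 40 expressed genes was -0.65, beside -0.20 over the 14929 genes that reached 1 TPM in 1 library or both and -0.25 over protein-coding genes. As the all-gene median was itself below 0, a gene that moved like the median gene sits at -0.20 and not at 0. Of the 40 genes, 33 lay below that median.

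Past 2-fold, 9 of the 40 genes (22.5%) fell, against a background of 9.61% of all expressed genes. These were HNRNPH2, HNRNPR, ESRP2, HNRNPF, HNRNPA2B1, PTBP1, HNRNPU, TRA2B and TRA2A. None rose past 2-fold, where the background was 4.82%. Past 1.5-fold, 22 of the 40 (55%) fell and none rose, against 25.3% and 11.5% of all genes. Counting any difference, 37 of 40 (92.5%) were lower, against 63.3%. The gene just inside the 2-fold limit was TRA2A at -1.14, and the one just outside was HNRNPH3 at -0.95. With the requirement raised to 10 TPM, 8 of 39 regulators fell past 2-fold against 10.1% of genes, and 21 fell past 1.5-fold against 24.4%.

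**Figure D1:**
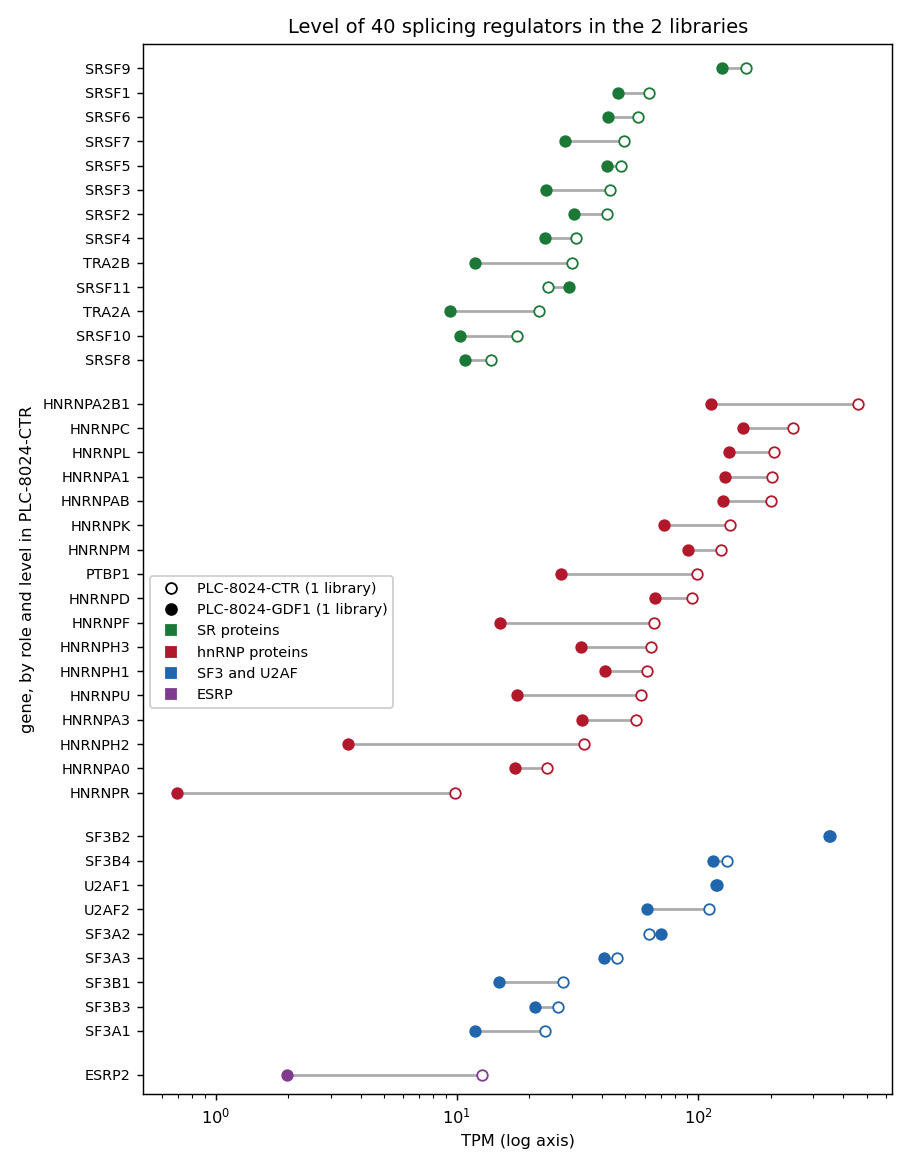
Level of each of the 40 expressed splicing regulators in TPM (log axis) in the single PLC-8024-CTR library (open circles) and the single PLC-8024-GDF1 library (filled circles), grouped by role and ordered by control level. The grey line joins the 2 values of a gene, and the longest lines belong to HNRNPR, HNRNPH2, ESRP2, HNRNPF and HNRNPA2B1, while SF3B2 and U2AF1 have nearly superimposed circles.

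Across the roles the differences were uneven. Of the 3 roles with more than 1 expressed gene, the hnRNPs had the lowest median, -0.74, with 17 of 17 genes lower. Of these, 6 fell past 2-fold and 13 past 1.5-fold. With the GC trend described below removed, only those 6 stayed past 1.5-fold. The SR proteins had a median of -0.42, with 12 of 13 lower, 2 past 2-fold and 5 past 1.5-fold, although this median became 0.03 once the trend with GC content described below was subtracted. SF3 and U2AF had a median of -0.18, close to that of all genes, with 7 of 9 lower, none past 2-fold and 3 past 1.5-fold, and this median became 0.02 when the GDF1 library was rescaled to a median ratio of 1. By summed TPM, the hnRNPs kept 50.1% of their control level (2143 to 1075 TPM), the SR proteins 72.5% (597 to 433 TPM) and SF3 with U2AF 90.2% (895 to 807 TPM). The ratio of summed hnRNP to summed SR transcripts was thus 3.59 in control and 2.48 in GDF1 cells. These sums weigh abundant genes most, and HNRNPA2B1 alone made up 348.2 of the 1068.5 TPM lost over the hnRNPs.

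**Figure D2:**
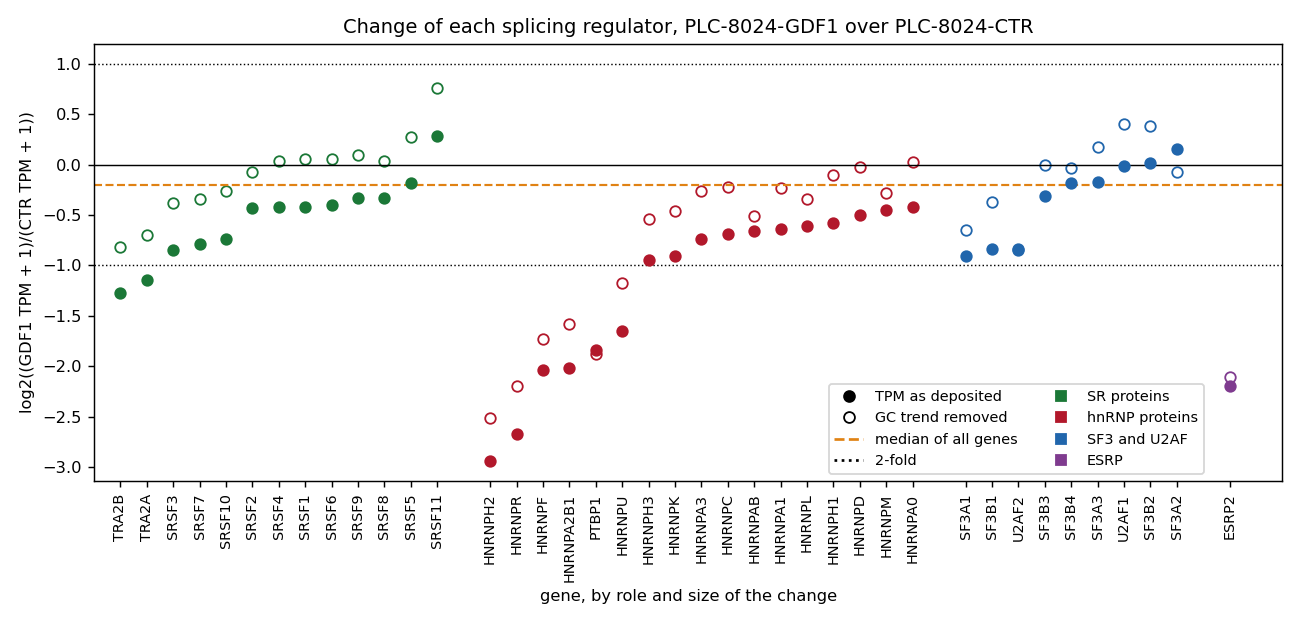
log2 change of each expressed splicing regulator (PLC-8024-GDF1 over PLC-8024-CTR, pseudocount of 1, 1 library per group), ordered within its role. Filled circles are TPM as deposited, open circles have the trend with transcript GC content removed, the dashed line is the all-gene median of -0.20 and dotted lines mark 2-fold. The 6 hnRNPs described below, ESRP2, TRA2A and TRA2B lie under the lower dotted line, both TRA2 genes come back above it once the trend is removed, and most SR proteins then move to about 0.

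HNRNPA2B1 encodes the nuclear proteins A2 and B1, which bind UAG-containing RNA and act in splicing, microRNA processing and RNA transport. It lies on chromosome 7 (chr7:26210771-26241149, minus strand, GRCh37). Its level was 462 TPM in control and 113 TPM in GDF1 cells, a 4.07-fold fall (log2 change -2.02). In control cells it was the most abundant of all 41 genes, and in GDF1 cells it ranked 9. This gene accounted for 26.2% of the net TPM lost over the whole set. Without it, the remaining 39 expressed genes still had a median of -0.64 and summed to 3186 and 2203 TPM.

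Its relatives were lower by less. HNRNPA1, a repressor of exons that competes with SRSF1 for the choice of splice sites, was at 202 and 129 TPM (-0.64), past 1.5-fold as deposited. It was within 1.5-fold on rescaling (-0.44) and with the GC trend removed (-0.23). HNRNPA3, a close relative, was at 55.5 and 32.9 TPM (-0.74). HNRNPA0, which binds AU-rich elements, was at 23.7 and 17.5 TPM (-0.42) and stayed within 1.5-fold. Over these 4 genes the sum went from 743 to 293 TPM, and the share of HNRNPA2B1 in it from 62.2% to 38.8%, while that of HNRNPA1 went from 27.2% to 44.0%. The ratio of HNRNPA2B1 to HNRNPA1 therefore crossed 1, from 2.29 to 0.88.

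HNRNPF, HNRNPH1, HNRNPH2 and HNRNPH3 encode closely related proteins that bind runs of G, and their 4 transcripts diverged more than those of any other family formed here. HNRNPH2 (chrX:100663210-100669121, plus strand) was at 33.8 TPM in control and 3.54 TPM in GDF1 cells, a 9.55-fold fall (-2.94), and only 0.275% of expressed genes had a lower change. HNRNPF (chr10:43881065-43904634, minus strand) was at 65.5 and 15.2 TPM, a 4.32-fold fall (-2.04). HNRNPH3 was at 64.0 and 32.7 TPM (-0.95). HNRNPH1 was at 61.7 and 41.0 TPM (-0.58), at the 1.5-fold limit, just within it with the pseudocount of 1 and just past it by the plain ratio (log2 -0.59). The control library thus held HNRNPF, HNRNPH1 and HNRNPH3 at like levels, and the GDF1 library did not. The sum of the family went from 225 to 92.4 TPM. HNRNPH1 made up 27.4% of it in control and 44.4% in GDF1 cells, HNRNPF 29.1% and 16.4%, and HNRNPH2 15.0% and 3.83%, and the ratio of HNRNPH1 to HNRNPH2 was 1.82 and 11.6.

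The value of HNRNPH2 needs a reservation. The readthrough gene RPL36A-HNRNPH2 covers it on the same strand, so reads may be divided between both, and that gene was at 43.8 and 1.93 TPM. Added together they were at 77.6 and 5.47 TPM, a log2 change of -3.60. The direction was therefore the same for either entry and for the sum.

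**Figure D3:**
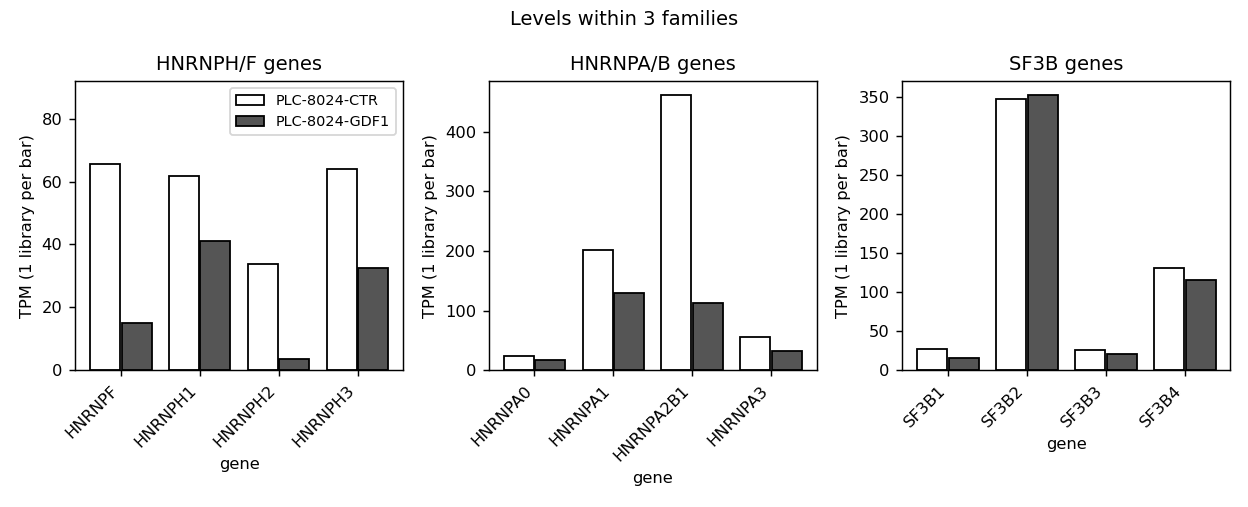
TPM in PLC-8024-CTR (white bars) and PLC-8024-GDF1 (grey bars) of the genes of 3 families, with 1 library per bar, no error bars and axes that start at 0. HNRNPH2 and HNRNPF drop far more than HNRNPH1, HNRNPA2B1 falls below HNRNPA1, and SF3B2 is at 347 and 352 TPM.

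HNRNPR, HNRNPU and PTBP1 completed the hnRNPs that fell past 2-fold. HNRNPR, a relative of SYNCRIP that binds mRNA in nucleus and cytoplasm (chr1:23630264-23670829, minus strand), was at 9.81 TPM in control and 0.69 TPM in GDF1 cells. Its plain ratio was 14.1-fold lower, the widest of the expressed regulators, and its log2 change with the pseudocount was -2.67. It was also the lowest of the hnRNPs in control cells. HNRNPU, also known as scaffold attachment factor A, links RNA to chromatin (chr1:245003940-245027862, minus strand) and was at 58.0 and 17.8 TPM, a 3.26-fold fall (-1.65). PTBP1 binds pyrimidine tracts and represses many neuronal and muscle exons (chr19:797075-812327, plus strand). It was at 99.4 and 27.1 TPM, a 3.67-fold fall (-1.84).

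The other hnRNPs were abundant and lay between -0.45 and -0.90. HNRNPC, which binds U tracts of nascent transcripts and keeps cryptic exons silent, was at 247 and 153 TPM (-0.69). HNRNPL, a reader of CA repeats, was at 206 and 134 TPM (-0.61). HNRNPAB was at 201 and 127 TPM (-0.66). HNRNPK, a KH-domain protein that binds C-rich RNA and DNA, was at 136 and 72.4 TPM (-0.90). These 4 were past 1.5-fold and short of 2-fold as deposited. With the GC trend removed all 4 were within 1.5-fold (-0.22, -0.34, -0.51 and -0.46, in this order). On rescaling only HNRNPK stayed past it (-0.70), with HNRNPC at -0.48, HNRNPL at -0.41 and HNRNPAB at -0.46. HNRNPM, which binds GU-rich RNA, was at 124 and 91.0 TPM (-0.45). HNRNPD, also called AUF1, a regulator of mRNA decay through AU-rich elements, was at 93.9 and 66.3 TPM (-0.50). Both of these stayed within 1.5-fold.

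**Figure D4:**
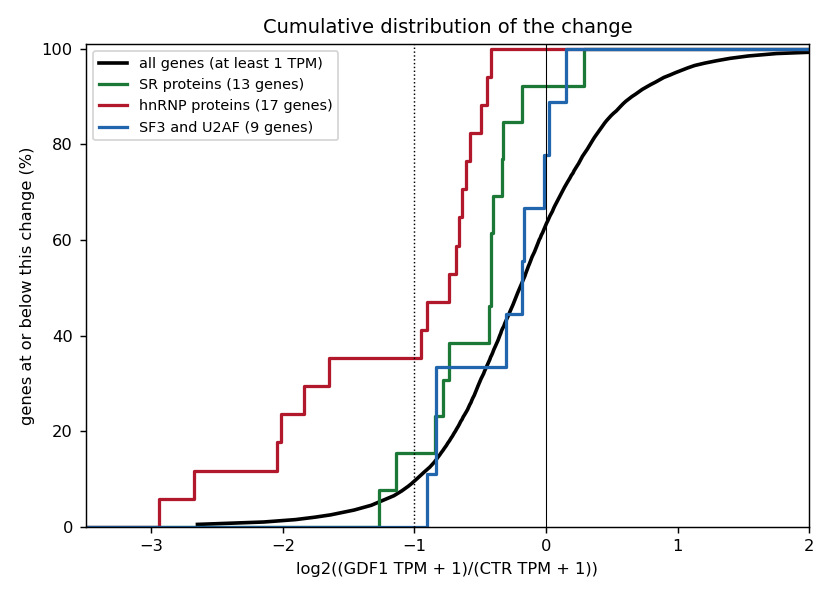
Cumulative share of genes (%) at or below a given log2 change from control to GDF1 cells (pseudocount of 1), for all 14929 expressed genes (black), 13 SR proteins (green), 17 hnRNPs (red) and 9 SF3 and U2AF genes (blue), each gene from 1 library per group. From its first step on, the red line lies to the left of the black one, and it reaches 100% at -0.42, whereas the blue line crosses it.

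For the hnRNPs past 2-fold, the promoter is shown as a description. Whether any sequence in it had a part in the changes was not tested. A RefSeq promoter (GRCh38.p14, the 250 bases before the transcription start) was used for 35 of the 41 genes. Among them were 7 of the 9 that fell past 2-fold. ESRP1 was left out of this search. The letters CCAAT, read on either strand and matching the box bound by the trimeric factor NF-Y, occurred in 14 of the 35 (40.0%) and in 33.0% of all 27305 promoters. They occurred in 6 of the 7 promoters of genes past 2-fold, TRA2B being the one without, and in 8 of the 28 others. This motif was singled out among the 9 searched after the values were seen, and a match of 5 letters is a description and not a site. The promoters of the 6 hnRNPs follow, with that of HNRNPH1 as the relative with the smallest change in its family. Each is written 5′ to 3′ on the strand of its gene, with CCAAT and its reverse complement ATTGG in capitals.
HNRNPA2B1 (chr7:26200747-26200996, minus strand): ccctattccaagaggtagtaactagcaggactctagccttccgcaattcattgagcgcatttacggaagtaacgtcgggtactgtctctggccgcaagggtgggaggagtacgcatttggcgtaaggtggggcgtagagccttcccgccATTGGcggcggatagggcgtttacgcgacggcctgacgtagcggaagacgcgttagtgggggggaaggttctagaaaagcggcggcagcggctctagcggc
HNRNPF (chr10:43408858-43409107, minus strand): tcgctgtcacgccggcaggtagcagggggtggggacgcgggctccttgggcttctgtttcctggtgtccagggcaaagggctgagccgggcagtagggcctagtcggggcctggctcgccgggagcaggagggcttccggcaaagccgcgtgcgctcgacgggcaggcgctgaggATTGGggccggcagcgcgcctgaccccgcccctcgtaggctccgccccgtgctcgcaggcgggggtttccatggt
HNRNPH2 (chrX:101407972-101408221, plus strand): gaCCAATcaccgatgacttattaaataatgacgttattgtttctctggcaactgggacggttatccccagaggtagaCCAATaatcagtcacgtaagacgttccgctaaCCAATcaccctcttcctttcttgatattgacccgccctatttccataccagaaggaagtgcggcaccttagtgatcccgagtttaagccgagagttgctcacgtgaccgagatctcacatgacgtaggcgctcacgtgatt
HNRNPR (chr1:23344285-23344534, minus strand): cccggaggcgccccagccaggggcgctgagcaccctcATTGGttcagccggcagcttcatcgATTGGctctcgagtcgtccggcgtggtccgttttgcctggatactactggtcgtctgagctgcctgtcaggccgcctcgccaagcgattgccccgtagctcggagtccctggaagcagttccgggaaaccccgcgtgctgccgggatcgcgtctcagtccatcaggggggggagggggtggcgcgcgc
HNRNPU (chr1:244864544-244864793, minus strand): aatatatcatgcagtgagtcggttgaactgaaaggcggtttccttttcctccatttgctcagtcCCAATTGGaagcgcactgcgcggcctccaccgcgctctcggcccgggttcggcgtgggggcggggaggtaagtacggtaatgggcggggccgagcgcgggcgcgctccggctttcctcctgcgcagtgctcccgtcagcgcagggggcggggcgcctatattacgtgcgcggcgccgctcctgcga
PTBP1 (chr19:797202-797451, plus strand): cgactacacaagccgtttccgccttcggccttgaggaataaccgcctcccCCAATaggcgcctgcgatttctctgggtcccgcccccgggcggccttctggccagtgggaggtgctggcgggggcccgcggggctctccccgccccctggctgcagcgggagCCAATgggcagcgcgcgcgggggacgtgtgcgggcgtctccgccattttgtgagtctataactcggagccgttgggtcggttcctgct
HNRNPH1 (chr5:179634785-179635034, minus strand): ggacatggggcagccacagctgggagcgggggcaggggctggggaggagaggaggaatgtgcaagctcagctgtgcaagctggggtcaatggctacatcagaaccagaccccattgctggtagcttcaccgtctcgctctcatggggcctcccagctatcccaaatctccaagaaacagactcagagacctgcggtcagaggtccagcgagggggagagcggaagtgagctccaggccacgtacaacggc
In HNRNPU the letters on both strands overlap in a single run, and HNRNPH1 had none of the 9 motifs in this window. Among the 28 promoters of genes not past 2-fold, with CCAAT in only 8, that of SRSF9 also had none. Other starts of these genes were not searched. For the other motifs, also read on both strands, the share among the 35 promoters was 62.9% for GGGCGG (42.3% of all promoters), 37.1% for TGACG (21.7%), 28.6% for CCGGAAG (8.82%), 17.1% for CACGTG (6.49%), 14.3% for TATAAA (11.1%), 8.57% for GCATGCGC (2.81%) and 5.71% for ATGGCGG (2.83%). The palindrome GTCTAGAC, bound by SMAD3 and SMAD4, was in none of the 35 and in 0.176% of all promoters. The other motifs were also split between the 7 promoters of genes past 2-fold and the 28 others. In this order, GGGCGG was in 5 and 17, TGACG in 4 and 9, CCGGAAG in 1 and 9 and CACGTG in 1 and 5. TATAAA was in 0 and 5, GCATGCGC in 0 and 3 and ATGGCGG in 2 and 0. The median GC content was 65.6% for these 35 promoters and 58% for all, and the shares of GC-rich letters were not adjusted for this.

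Among the SR proteins, TRA2A and TRA2B differed from the rest. They are the homologues of Drosophila transformer-2, bind GAA-rich exonic enhancers and regulate their own transcripts through a shared kind of poison exon. TRA2B (chr3:185632346-185655891, minus strand) was at 30.0 TPM in control and 11.9 TPM in GDF1 cells, a 2.53-fold fall (-1.27). TRA2A (chr7:23544399-23571660, minus strand) was at 21.9 and 9.37 TPM, a 2.34-fold fall (-1.14). The pair moved together, and TRA2A made up 42.2% and 44.1% of their sum in the 2 libraries. Both lost the 2-fold call when the GC trend was removed (-0.81 for TRA2B and -0.70 for TRA2A), and TRA2A also lost it on rescaling, at -0.95.

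Of SRSF1 to SRSF11, 3 genes fell past 1.5-fold. SRSF3, the smallest SR protein, which also links splicing to mRNA export, was at 43.1 and 23.5 TPM (-0.85). SRSF7, its close relative with a zinc knuckle, was at 49.1 and 28.1 TPM (-0.78). SRSF10, a general splicing repressor when dephosphorylated, was at 17.8 and 10.3 TPM (-0.74). These 3 and the TRA2 pair were the SR genes that lay furthest below 0 as deposited, on rescaling and with the GC trend removed. With the trend removed, however, SRSF3 (-0.38), SRSF7 (-0.34) and SRSF10 (-0.26) were all within 1.5-fold. On rescaling SRSF3 stayed past it (-0.65), SRSF7 was just within it (-0.584) and SRSF10 was within it (-0.55).

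The remaining 8 SR genes stayed within 1.5-fold. SRSF1, the prototype of the family and a proto-oncogene, was at 62.4 and 46.5 TPM (-0.42). SRSF2, which acts on exonic enhancers and is mutated in myeloid disease, was at 41.7 and 30.7 TPM (-0.43), and its relative SRSF8 was at 13.9 and 10.8 TPM (-0.33). SRSF9, akin to SRSF1, was the most abundant SR transcript at 158 and 125 TPM (-0.33). SRSF4, SRSF5 and SRSF6 are close relatives of each other. SRSF4 was at 31.2 and 23.1 TPM (-0.42), SRSF6 at 56.1 and 42.2 TPM (-0.40) and SRSF5 at 47.8 and 42.0 TPM (-0.18). Of these 7 genes, all but SRSF2 were at or above 0.03 once the GC trend was removed, and SRSF5 was at 0.02 on rescaling. SRSF11, which interacts with U2AF2, was the only SR gene higher in GDF1 cells, at 23.8 and 29.2 TPM (0.29). It had the highest change of all 40 genes, and it passed 1.5-fold only with the GC trend removed, at 0.76.

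The SF3 and U2AF subunits split within their own complexes. SF3B2 was at 347 and 352 TPM (0.02) and became the most abundant of the 41 genes in GDF1 cells, after ranking 2 in control. SF3B1, the subunit that holds the branch point helix and the target of splicing-modulating drugs, was at 27.6 and 15.0 TPM (-0.84). It was past 1.5-fold as deposited and on rescaling (-0.64), and within it with the GC trend removed (-0.37). SF3B3 was at 26.3 and 21.1 TPM (-0.31). SF3B4, which contacts RNA upstream of the branch point, was at 131 and 116 TPM (-0.18), and at 0.02 on rescaling. The ratio of SF3B2 to SF3B1 transcripts was 12.6 in control and 23.5 in GDF1 cells, and that of SF3B2 to HNRNPA2B1 was 0.75 and 3.11. The sum of the SF3B genes was 532 and 504 TPM.

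SF3A1, which contacts the U1 snRNP as well as U2, was at 23.3 and 11.9 TPM (-0.91), past 1.5-fold. The other subunits of SF3A did not follow it. SF3A2 was at 62.7 and 69.9 TPM (0.15, but -0.08 with the GC trend removed), and SF3A3 was at 46.1 and 40.9 TPM (-0.17, but 0.03 on rescaling and 0.17 with the GC trend removed). U2AF2, the large subunit that binds the polypyrimidine tract, was at 111 and 61.6 TPM (-0.83), past 1.5-fold. U2AF1, the small subunit that reads the AG at the end of the intron, was at 120 and 119 TPM (-0.01, but 0.19 on rescaling). The ratio of U2AF1 to U2AF2 was 1.08 and 1.93. U2AF1L5, a copy of U2AF1 with nearly the same sequence, was listed at 128 and 112 TPM, so the division of reads between both is uncertain. The annotation marks this entry as an artifact, and the locus is known from GRCh38, although the labels name hg19 as the build. Their sum was at 248 and 231 TPM (-0.10).

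ESRP2, an RNA-binding protein of epithelial cells that promotes epithelial exon choices and adult splicing in hepatocytes, was at 12.7 TPM in control and 1.98 TPM in GDF1 cells, a 6.41-fold fall (-2.20). It lies on chromosome 16 (chr16:68262936-68272005, minus strand). Of the epithelial genes checked as markers, CDH1 was at 10.4 and 0.33 TPM, KRT18 at 1005 and 1224 TPM and KRT19 at 4.46 and 10.9 TPM. The keratins were thus higher and ESRP2 and CDH1 lower in GDF1 cells, and ESRP1 was under 1 TPM in both libraries.

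The transcript GC content of the regulators, from 35.1% for HNRNPR to 66.5% for SF3A2, was set beside these values. Whether it played a part in the changes was not tested. In this pair of libraries the change increased with transcript GC content over protein-coding genes, with medians of -0.48, -0.41, -0.28, -0.13 and 0.11 from the lowest to the highest of 5 GC bins with equal numbers of genes. The median transcript GC content of the 40 regulators was 42.0%, against 49.6% for all expressed genes, and 28 of them lay in the 2 lowest bins. Within the bins the regulators had medians of -0.69 (15 genes), -0.64 (13), -0.61 (5), -0.55 (4) and -0.83 (3), each lower than that of all protein-coding genes in the same bin. Subtracting the trend left a median of -0.26 over the regulators, -0.46 over the hnRNPs, 0.03 over the SR proteins and -0.03 over SF3 and U2AF.

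After this subtraction 7 regulators stayed past 2-fold lower, against 5.38% of all genes. They were the 6 hnRNPs and ESRP2. PTBP1, with a transcript GC content of 61.7%, was at -1.88, and HNRNPH2 at -2.51. HNRNPR was at -2.20, HNRNPF at -1.73, HNRNPA2B1 at -1.58 and HNRNPU at -1.17. Rescaling of the GDF1 library by a factor of 1.15 (0.21 on the log2 scale) left 8 regulators past 2-fold, against 6.85% of all genes. All 17 hnRNPs remained below 0 on rescaling, and 16 of them with the GC trend removed, where HNRNPA0 stood at 0.03. Of all expressed genes, 7700 of 14929 were below 0 on rescaling and 6820 of 14640 with the GC trend removed.

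Overlapping genes and copies could touch other values too. In GRCh37, 16 of the 41 genes overlapped another expressed gene, 6 on the same strand and 13 on the opposite strand. The strand setting of the counting was not stated, so reads of opposite partners may not be told apart. Of the 9 genes past 2-fold, 4 had such a partner. CBX3, opposite HNRNPA2B1, was at 34.5 and 19.0 TPM, and COX20, opposite HNRNPU, was at 25.9 and 16.6 TPM. Both partners were below the level of the regulator in control cells. For ESRP2, the partners were AC020978.6 on the same strand, at 4.63 and 6.82 TPM, and NFATC3 on the opposite strand, at 2.20 and 1.51 TPM. HNRNPA1 has many processed pseudogenes, of which HNRNPA1P7 was at 30.1 and 15.4 TPM. With its named copies, HNRNPA1 was at 253 and 158 TPM (-0.68), close to its value alone. HNRNPA1L2, an intronless copy, went the other way, at 1.95 and 10.5 TPM. With this copy alone added, HNRNPA1 was at 204 and 139 TPM (-0.54), within 1.5-fold.

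The rest of the splicing machinery was examined through 9 lists with 182 genes, of which 163 had at least 1 TPM. Over these, 15 (9.20%) fell past 2-fold and 5 rose, 53 (32.5%) fell past 1.5-fold and 7 rose, and the median was -0.34. The 2-fold share was near the background of 9.61% for all genes. On rescaling 10 genes were past 2-fold lower with a median of -0.16, and with the GC trend removed 6 were, with a median of -0.02. Of the lists, the other U2 snRNP and branch point factors had the lowest median, -0.63, with 15 of 17 genes lower and 9 past 1.5-fold. PHF5A, which lies against SF3B1 at the branch point, fell past 2-fold, from 50.2 to 23.8 TPM, a call lost on rescaling (-0.85) and with the GC trend removed (-0.73).

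The Sm core and U1 list (14 genes, median -0.25) held a gene past 2-fold in each direction. LUC7L2, a U1-associated factor in 5′ splice site choice, fell from 18.8 to 6.76 TPM (-0.89 with the GC trend removed, short of 2-fold), whereas SNRPA, an RNA-binding protein of the U1 snRNP, rose from 74.3 to 153 TPM. Among the 23 tri-snRNP genes (median -0.20), none passed 2-fold with the pseudocount and 4 fell past 1.5-fold. Of these, SNRNP40 was at 27.1 and 13.0 TPM and LSM6 at 6.27 and 2.69 TPM, which by plain ratio is 2.08-fold and 2.33-fold lower. The Prp19 complex and catalytic helicases (19 genes, median -0.46) had 4 past 2-fold. These included the helicase DHX16, from 72.3 to 29.0 TPM, the Prp19-associated BCAS2, from 35.0 to 16.4 TPM, and CWC22, which recruits the exon junction complex, from 5.09 to 1.83 TPM. BCAS2 and CWC22 were short of 2-fold on rescaling (-0.86 and -0.97) and with the GC trend removed (-0.58 and -0.65). The 12 minor spliceosome genes had a median of -0.22, with 1 past 2-fold.

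The kinases that phosphorylate SR proteins and the SR-related proteins (22 genes, median -0.44) had 3 genes past 2-fold, all of them large SR-related proteins. SRRM1, an exon-bridging coactivator, fell from 11.0 to 2.04 TPM. SON, a scaffold of nuclear speckles, fell from 24.6 to 8.25 TPM. ACIN1, a component of the ASAP complex, fell from 77.0 to 22.0 TPM. Among other RNA-binding splicing regulators (36 expressed of 42, median -0.47), 4 fell past 2-fold and 2 rose. The poly(C)-binding proteins PCBP1 and PCBP2 fell from 285 to 127 TPM and from 246 to 119 TPM, TIAL1, a binder of U-rich RNA, from 53.1 to 13.7 TPM, and RBFOX2, a reader of UGCAUG, from 13.3 to 5.07 TPM. PCBP1 and PCBP2 were short of 2-fold on rescaling (-0.95 and -0.84), and with the GC trend removed so were both (PCBP2 at -0.75) and RBFOX2 (-0.93). KHDRBS1 (SAM68) rose from 16.4 to 36.6 TPM, so that RNA-binding proteins did not all move one way.

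Of 18 tissue-restricted splicing regulators only 5 reached 1 TPM (median 0.09), and both genes past 2-fold were under 5 TPM in control and higher in GDF1 cells. The neuronal regulator NOVA1 rose from 2.34 to 5.77 TPM and SRRM3, which promotes neural microexons, from 2.19 to 6.67 TPM (0.97 with the GC trend removed, short of 2-fold). In the list of the exon junction complex and nonsense-mediated decay (15 genes, median -0.29), SMG6, the endonuclease of this decay pathway, fell from 8.70 to 2.13 TPM and no other gene passed 2-fold. With the GC trend removed the medians of the Sm core and U1 list and of the tri-snRNP list became 0.12, and that of this last list 0.004.

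**Figure D5:**
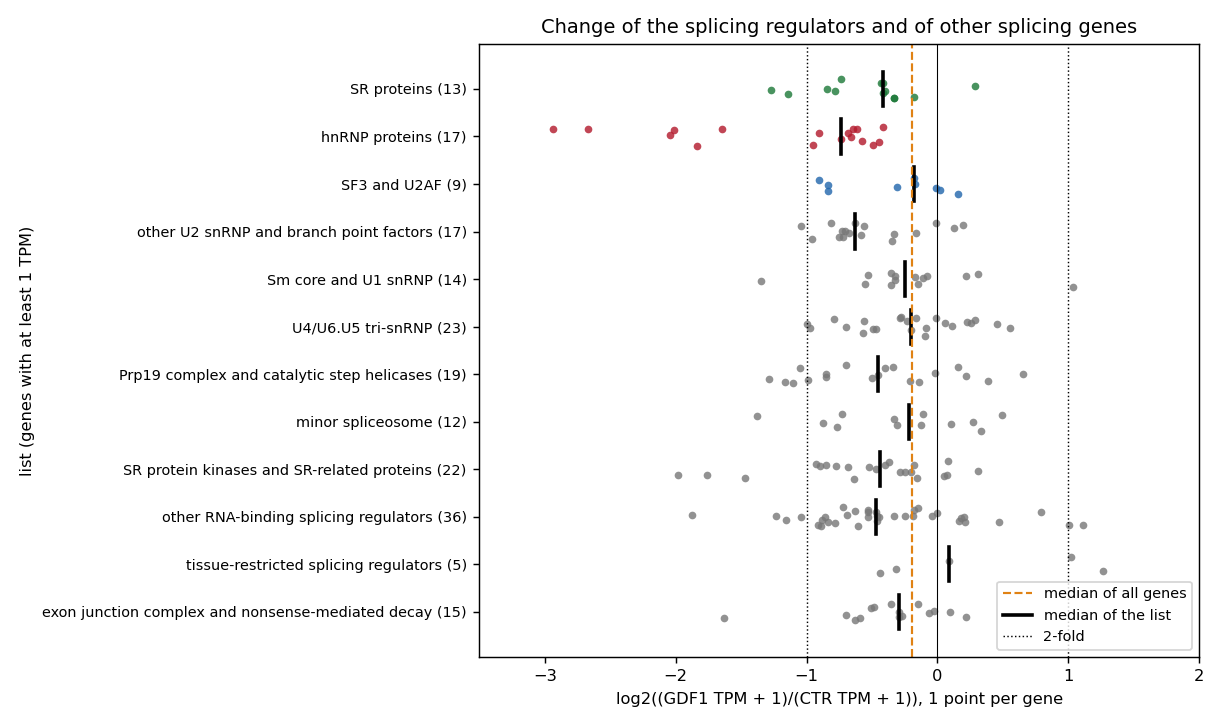
log2 change (PLC-8024-GDF1 over PLC-8024-CTR, pseudocount of 1, 1 library per group) of the SR, hnRNP, SF3 and U2AF genes (coloured points) and of the 9 lists of other splicing genes (grey points), with the number of expressed genes in brackets. Black bars are list medians, the dashed line is the all-gene median of -0.20 and dotted lines mark 2-fold. Of the lists plotted, which leave out ESRP2, the hnRNPs have the lowest median, and the tri-snRNP genes centre on the dashed line.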

How the data were processed

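RNA from 1 PLC-8024-CTR and 1 PLC-8024-GDF1 library was sequenced on an Illumina HiSeq instrument. Per the labels and the submitters' processing notes, reads were handled with FastQC 0.11.2, Trimmomatic 0.36, HISAT2 2.1.0, bedtools 2.26.0 and StringTie 1.3.3b on hg19, and the authors deposited 1 TPM value per gene and library, in a column headed as a mean although each file belongs to 1 library. Unexpressed genes carry 0.0001. TPM keeps no read counts, and the options of the counting were not given in the sources used here.

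Both tables were joined on the gene identifier. The log2 change was computed with a pseudocount of 1 over genes reaching 1 TPM in 1 library or both (Python 3.11.15, numpy 2.4.6, pandas 2.3.3, statsmodels 0.14.6). The calculation was tested on simulated data. With 1 library per condition no test was run, and counts past 2-fold (the fold the study used) and 1.5-fold are set beside those of all genes. The GC trend is a lowess curve (span 0.3) over protein-coding genes with a GENCODE transcript. Rescaling sets the median ratio of genes with at least 5 TPM to 1. Every regulator is given. Other splicing genes are named where they passed 2-fold or had the largest changes of their list, with at least 5 TPM, or as overlapping or copied genes, except for an item that is not reported here. The members and lists were chosen with earlier results of these data known. Positions are those of GRCh37 and promoter positions those of GRCh38.p14. Protein sequences were not used here.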

Additional observations from a re-analysis of the deposited data

How the results depend on the processing

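The 9 regulators past 2-fold lower became 8 on rescaling of the GDF1 library (TRA2A at -0.95) and 7 with the GC trend removed (TRA2A at -0.70, TRA2B at -0.81), and remained 9 with a pseudocount of 0.1, with the plain TPM ratio, without the filter on low values and with copies added. None was past 2-fold higher under these settings. The median over all regulators ranged from -0.67 with named copies added to -0.26 with the GC trend removed, and its distance to the median of the background was -0.45, or -0.40 against protein-coding genes alone. The count past 1.5-fold was 22 lower and 0 higher, or 23 lower with a pseudocount of 0.1 or the plain ratio (HNRNPH1 then passed). It was 15 lower on rescaling, and 11 lower and 1 higher with the GC trend removed. For these last settings the share of all genes past 1.5-fold was not computed. On rescaling, the median of SF3 and U2AF became 0.024, and SRSF5 (0.022), SF3A3 (0.034), SF3B4 (0.024) and U2AF1 (0.19) changed sign. With the GC trend removed, the SR median became 0.033, and SRSF1 (0.056), SRSF4 (0.033), SRSF5 (0.27), SRSF6 (0.059), SRSF8 (0.041), SRSF9 (0.095), HNRNPA0 (0.027), SF3A2 (-0.076), SF3A3 (0.17) and U2AF1 (0.40) changed sign. The cause of these differences was not tested. With no filter on low values, the ESRP median was -0.96, since ESRP1 then enters it. Adding near-identical copies, using the 10 TPM limit for the background and summing TPM by role were chosen after seeing the data. They changed no direction, but HNRNPA1 was within 1.5-fold (-0.54) with its near-identical copy added. No paired analysis was possible because there is only 1 library for PLC-8024-CTR cells and 1 for PLC-8024-GDF1 cells. For the same reason no library could be left out. With depth unknown, the precision of low values such as that of HNRNPR in GDF1 cells (0.69 TPM) cannot be given.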
